A study of Homo sapiens with 402 samples.

Results

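The genes described here code for subunits of the oxidative phosphorylation complexes, followed in MCF10A cells over 84 combinations of chemical and dose. They were chosen by name: symbols of the mitochondrially coded subunits (MT-ND, MT-CO, MT-ATP and MT-CYB) and of the nuclear families NDUF with A, B, C, S or V, UQCR, COX4 to COX8 and ATP5, without names ending in P plus digits, and with a mean of at least 5 CPM in the controls of the plate. Levels are CPM, read counts scaled to the library size after TMM normalization. Of 34721 symbols, 94 matched the names and 85 passed the level on at least 1 plate: all 13 mitochondrially coded genes and 72 nuclear genes, 34 of complex I, 9 of complex III, 11 of complex IV and 18 of complex V. Genes were placed in a complex by their name alone, which puts NDUFA4 in complex I. Of the 85, 84 passed on every plate. UQCRHL, a copy of the complex III hinge gene UQCRH, lay just inside with control means of 5.68, 5.18 and 5.46 CPM on 3 plates and just outside with 3.12 and 3.42 CPM on the other two, and its reads cannot be told from those of UQCRH with certainty. Below the level on every plate were NDUFV2, NDUFA13, NDUFA7, ATP5MGL, COX7A1, COX6B2, COX8C, COX4I2 and ATP5MF-PTCD1, the nearest being NDUFV2 with control means of 1.22 to 3.11 CPM and NDUFA13 with 1.79 to 2.82 CPM.

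MCF10A is an established, non-tumorigenic epithelial line from human breast. Cells at passage 105 in 384-well plates received 1 of 21 chemicals at 0.025, 0.25, 2.5 or 25 µM for 48 h, or solvent alone, and total RNA was sequenced by plexWell, in which each well of a plate carries its own barcode. The metals (mercury, lead, copper, cadmium and arsenic) were on plate 3153-AT, where 15 wells had water alone. The chemicals labelled PPB, MPB, BPS, BPF and BPA shared plate 3206-AT, and thiram shared plate 3284-AT with PCB187, PCB153, DCP_25 and DCB_14; both plates had 15 DMSO controls. On plate 3240-AT, phenanthrene, PFOS, PFNA and PFDA were set against 12 DMSO controls and PFOA against 4 water controls. A separate plate carried DDE and 8 controls that bear its plate barcode but are labelled water and plate 3153-AT, while DDE is labelled DMSO. There were 4 libraries per dose of a chemical, but 3 at 0.025 µM of PPB and of MPB and 2 at 25 µM of cadmium. All cells are of 1 line at 1 passage, so the libraries of a group are wells and not donors.

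Oxidative phosphorylation couples the transfer of electrons along complexes I, III and IV of the inner mitochondrial membrane to the pumping of protons, and complex V, the ATP synthase, lets the protons return and makes ATP. The subunits come from both genomes: the mitochondrial DNA is transcribed as long RNAs from both strands, which are then cut into rRNAs, tRNAs and mRNAs, while the other subunits are transcribed in the nucleus and imported as proteins. Mammary epithelial lines such as MCF10A express both sets in culture.

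Total counts of the 401 libraries in the fits ran from 1.43 M to 25.8 M reads (M for mega). On plate 3153-AT the controls fell into 2 sets by the number in their label: the 8 first held 4.91% to 5.65% of their counts in the 13 mitochondrially coded genes, and the 7 last, with totals of 1.93 M to 5.40 M, held 3.89% to 4.30%. The dosed libraries 1 and 2 of a group go with the first numbers and 3 and 4 with the last, so values within these number sets are given where they matter; the labels do not call the sets a batch. One library labelled cadmium 25 µM on plate 3153-AT carries the barcode of plate 3284-AT and was set aside; its ratio of mitochondrial to nuclear coded subunit reads was 1.75 on the log2 scale, within the range of the controls of both plates. Control 16 of the DDE plate stood apart with 1.202% of its counts in the mitochondrially coded subunits. The 9 epithelial markers had control means of 2.82 to 4192 CPM, immune markers at most 0.200 CPM and endothelial markers at most 5.88 CPM, and of the fibroblast markers DCN was highest at 85.0 CPM.

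The mitochondrially coded genes lie next to each other on chrM (GRCh38, GENCODE v29 positions), and some share bases, which decides how their counts can be read. MT-ATP8 (chrM:8366-8572) and MT-ATP6 (chrM:8527-9207) are read from 1 mRNA and overlap by 46 bases, MT-ND4L (chrM:10470-10766) and MT-ND4 (chrM:10760-12137) by 7, and MT-ATP6 and MT-CO3 (chrM:9207-9990) by 1. The 2 longer overlaps are shown because a read over them can come from either gene; the capitals mark the start codon of the second gene.
MT-ATP8/MT-ATP6, chrM:8527-8572, plus strand: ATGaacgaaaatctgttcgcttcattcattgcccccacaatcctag
MT-ND4L/MT-ND4, chrM:10760-10766, plus strand: ATGctaa
MT-ND6 (chrM:14149-14673) is the member on the minus strand, and it borders MT-ND5 (chrM:12337-14148) with no base between them. How strand and multiply matching reads were handled is not given in the sources used here, so reads over these junctions, and reads shared with nuclear copies of these genes, cannot be assigned with certainty.

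Per kilobase of gene, MT-CO2 was the highest mitochondrially coded member in the controls of plate 3153-AT with a level of 12641 ± 3659 CPM per kb (SD, n = 15), and MT-ATP8 the lowest with 381 ± 132. In the controls of plate 3284-AT the same pair stood at 13464 ± 2084 and 351 ± 50.954 CPM per kb (SD, n = 15). The next levels down on plate 3153-AT were MT-CO1 at 7174 ± 1078, MT-ND4L at 6807 ± 1851 and MT-ND4 at 6083 ± 970 CPM per kb, and neighbours in this order differed by less than their SDs. Counts per kb of genes that leave the same precursor RNA thus spanned a wide range. MT-ATP6, which shares its mRNA with MT-ATP8, had 2428 ± 531 CPM per kb on plate 3153-AT. Counts per kb therefore need not follow the RNA level of a gene. Summed over the members, mitochondrially coded subunits had 3.49, 3.15, 3.23, 3.48 and 3.62 times the reads of the nuclear coded ones in the controls of plates 3153-AT, 3206-AT, 3240-AT and 3284-AT and of the DDE plate.

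No member was called in most of the dosed groups. In 71 of the 84 dosed groups no member was called by the edgeR test (adjusted p under 0.05 over all genes of the comparison). Of all genes, 0% to 3.005% were called in those groups. Between 0 and 41 members of a group, with a median of 4, had an unadjusted p under 0.05 in the same test. The share of all genes at that unadjusted threshold is not reported here, so these counts are not read as changes of the members. The medians of the log2 fold changes in those 71 groups ran from -0.17 to 0.31 for the mitochondrially coded and from -0.22 to 0.10 for the nuclear coded members. At 25 µM, 14 of 21 chemicals were without a call, and DESeq2 called 1 member over those 14. The log2 ratio of mitochondrial to nuclear coded subunit reads lay outside the range of the controls in every library of 3 groups: arsenic, cadmium and thiram at 25 µM. In the arsenic libraries it stood at 0.71, 0.84, 1.17 and 0.70, against 1.67 to 1.95 in the controls, and in the thiram libraries at 1.05, 0.93, 1.05 and 0.80, against 1.70 to 1.99. In the 2 cadmium libraries it stood at 3.18 and 3.61. The ratio was therefore below every control in all 8 arsenic and thiram libraries and above every control in both cadmium libraries, and the group means differed from the controls by -0.95, -0.84 and 1.60. In 77 of the other 81 groups the difference lay between -0.14 and 0.13, and in the 4 DDE groups between 0.11 and 0.24, or -0.05 and 0.08 without control 16; at 2.5 µM arsenic the libraries (1.72, 1.65, 1.71 and 1.73) overlapped the controls.

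**Figure D1:**
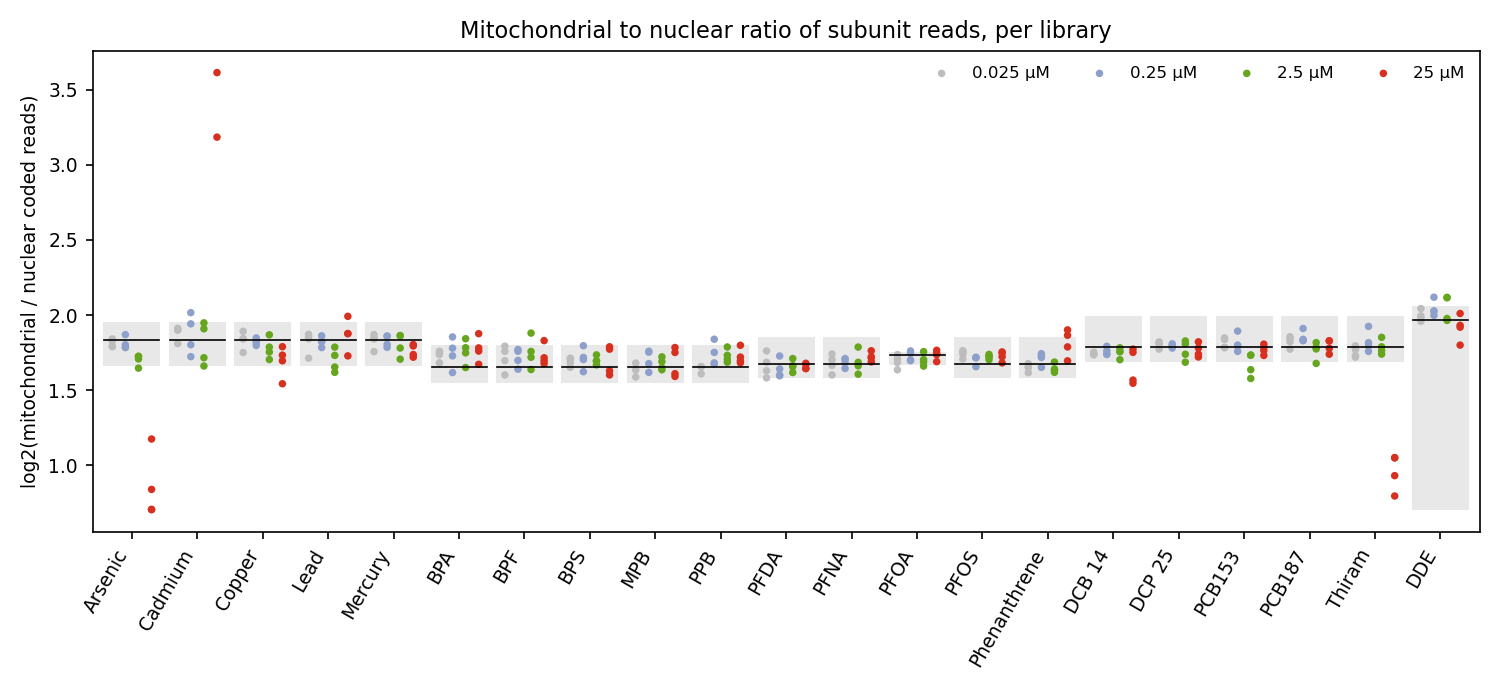
Log2 ratio of reads in mitochondrially coded to nuclear coded subunit genes (y axis), 1 point per dosed library, by chemical (x axis) and dose (colour, low to high from left to right); grey boxes span the controls of the plate and solvent and the black line is their median. Arsenic and thiram at 25 µM lie below their boxes (0.70 to 1.17 and 0.80 to 1.05) and cadmium at 25 µM lies above (3.18 and 3.61), while the box of DDE reaches down to 0.71 because of 1 control.

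With arsenic at 25 µM all 13 mitochondrially coded members fell, against 18.2% of all genes called lower in this comparison (41.4% called in either direction, 23.2% higher). Their share of all counts was 1.75%, 1.88%, 2.12% and 1.44% in the 4 libraries, while the nuclear coded members held 1.07%, 1.05%, 0.939% and 0.881%. The median log2 fold change was -1.41, with -0.48 for the nuclear coded members and 0.00 for all genes tested; RLE and DESeq2 scaling put the median of all genes at 0.14 and 0.15, and called the same number of mitochondrially coded members lower. In a bulk sample, fewer cells and less RNA per cell cannot be told apart, and a CPM value is a share of the RNA of the well. Among the complex I subunits, MT-ND5, which forms part of the proton-pumping arm, had 1759.9, 1832, 2071 and 1556 CPM, against 4136 to 5537 CPM with a median of 4909 in the controls. No library reached the lowest control, and MT-ND5 fell by 1.41 on the log2 scale (SE 0.11, adjusted p = 3.8e-20). MT-ND1, MT-ND2, MT-ND3, MT-ND4 and MT-ND4L fell by 1.27, 1.41, 1.48, 1.15 and 1.14, with the libraries of MT-ND3 overlapping the controls. MT-ND6, the member on the other strand, had 218, 228, 271 and 171 CPM, against 282 to 462 CPM with a median of 395, which is the smallest fall of the 13 at 0.80 (SE 0.14, adjusted p = 5.9e-07), again below every control.

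Cytochrome b (MT-CYB), the mitochondrially coded subunit of complex III, fell by 1.64 (SE 0.17, adjusted p = 7.6e-15). MT-CO1, the catalytic core of cytochrome c oxidase, had 3818, 4061, 5908 and 3135 CPM, against 8589 to 14167 CPM with a median of 11416 in the controls, and fell by 1.39 (SE 0.12, adjusted p = 6.8e-19). MT-CO2 and MT-CO3, the other core subunits, fell by 1.83 (SE 0.22) and 1.94 (SE 0.16). The largest falls were in the ATP synthase pair that shares an mRNA. MT-ATP6, part of the proton channel, had 402, 413, 439 and 318 CPM, against 1095 to 2094 CPM with a median of 1837, and fell by 2.08 (SE 0.18, adjusted p = 1.1e-18). MT-ATP8 had 19.4, 17.5, 26.4 and 13.7 CPM, against 43.3 to 126 CPM with a median of 75.0, and fell by 2.15 (SE 0.23, adjusted p = 2.4e-13). All 4 arsenic libraries lay below all 15 controls for 12 of the 13 genes. Within the number sets, MT-ATP6 fell by 2.23 in the first and 1.70 in the last set, and MT-CO1 by 1.61 and 0.99, so the fall was present on both sides of the division that separates the controls.

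The mitochondrial rRNAs, cut from the same precursors, were not called in arsenic. Of the rRNA and tRNA genes 3 of 22 were lower, all tRNAs at low levels, MT-TY, MT-TC and MT-TL1 with 0.422, 2.27 and 1.03 CPM on average. MT-RNR2, the large rRNA, had 56270.4, 55577, 29093 and 43604 CPM, against 34979 to 62729.5 CPM with a median of 53522 in the controls. The groups overlapped and the log2 fold change was -0.13 (SE 0.18, adjusted p = 0.597), which misses the threshold and does not show equality. The rRNAs took 5.77%, 5.80%, 3.13% and 4.63% of the counts in the arsenic libraries, against 3.95% to 6.20% in the controls. Of 3 RNAs that stay in the nucleus, all were higher in arsenic: their summed level was 4113 to 7895 CPM, against 659 to 2307 CPM in the controls, and MALAT1 alone had 6197, 6791, 3411 and 4878 CPM, against 455 to 1781 CPM. Their part in the fall of the members was not tested.

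Of the 71 nuclear coded members on plate 3153-AT, 38 fell and 2 rose with arsenic at 25 µM, beside the background of 18.2% lower and 23.2% higher. By complex, with genes placed by name, 16 of 34 were lower and 1 (NDUFA4) higher in complex I (median -0.29). In complex III 6 of 8 were lower (median -0.73). Complex IV had 3 of 11 lower and 1 higher (median -0.25), and complex V 13 of 18 lower (median -0.78). For 15 of the 38 all libraries lay outside the control range, and the rest overlapped it. In complex I, NDUFB10, an accessory subunit of the membrane arm, fell most: it had 53.7, 71.1, 55.4 and 48.9 CPM, against 114 to 257 CPM with a median of 179 in the controls (log2 fold change -1.60, SE 0.18, adjusted p = 7.1e-13), with no overlap. NDUFS7, which carries the last iron-sulfur cluster before ubiquinone, fell by 1.02 (SE 0.18, adjusted p = 1.1e-06) with libraries that overlapped the controls. NDUFA4, first described in complex I and later assigned to complex IV, was 1 of the 2 that rose, with 410.4, 385, 280.0 and 286 CPM, against 129 to 328 CPM with a median of 262 (0.50, SE 0.19, adjusted p = 0.031), libraries 1 and 2 lying above every control. In complex III, UQCR11, a small subunit, had 27.965, 15.4, 21.6 and 17.4 CPM, all below the controls at 28.4 to 76.7 CPM with a median of 46.8, and fell by 1.33 (SE 0.19, adjusted p = 5.8e-09). UQCR10, another small subunit, fell by 1.13, and UQCRFS1, the Rieske iron-sulfur protein, by 1.05 (SE 0.09) without overlap.

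In complex IV, COX5A and COX8A fell by 0.63 and 0.54, with COX7B between them at 0.58. COX7A2L, a supercomplex assembly factor that joins complexes III and IV, went the other way: it had 339, 339, 314 and 322 CPM, against 108 to 143 CPM with a median of 130.1 in the controls. Every arsenic library lay above the highest control, and COX7A2L rose by 1.36 (SE 0.09, adjusted p = 8.4e-24), a 2.57-fold increase and the largest rise of any member in this group. At the 3 lower arsenic doses COX7A2L had 89.7 to 150.1, 108.1 to 119.7 and 110.3 to 142 CPM, each range overlapping the controls. In complex V, ATP5F1D, the delta subunit of the rotor, had 84.8, 81.6, 83.6 and 65.7 CPM, against 179 to 313 CPM with a median of 249.4, and fell by 1.64 (SE 0.13, adjusted p = 1.2e-19). The catalytic head subunits ATP5F1A and ATP5F1B fell by 1.04 (SE 0.09) and 0.99 (SE 0.09), both without overlap. ATP5IF1, the inhibitor protein that binds the head when the enzyme would run backwards, fell by 0.74 (SE 0.20, adjusted p = 0.0016) with overlap.

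Subunit c forms the ring of the rotor and is made from 3 nuclear genes whose mature proteins are the same, ATP5MC1, ATP5MC2 and ATP5MC3, so they can be read side by side. ATP5MC1 had 63.002, 53.6, 64.2 and 51.4 CPM, against 116 to 236 CPM with a median of 189, and fell by 1.66 (SE 0.20, adjusted p = 1.7e-11). ATP5MC3 had 356, 322, 257 and 298 CPM, against 511 to 792 CPM with a median of 717, and fell by 1.17 (SE 0.13, adjusted p = 2.97e-13). ATP5MC2 had 262, 229.6, 199 and 168 CPM, against 210.1 to 484 CPM with a median of 405, and fell by 0.79 (SE 0.20, adjusted p = 0.00074). ATP5MC1 and ATP5MC3 lay below all controls in every library while 2 ATP5MC2 libraries lay within the control range; the differences between the 3 genes were not tested. In thiram at 25 µM the 3 genes fell in the same order, by 0.96, 0.72 and 0.26, and in MPB at 25 µM by 0.42, 0.29 and 0.38.

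**Figure D2:**
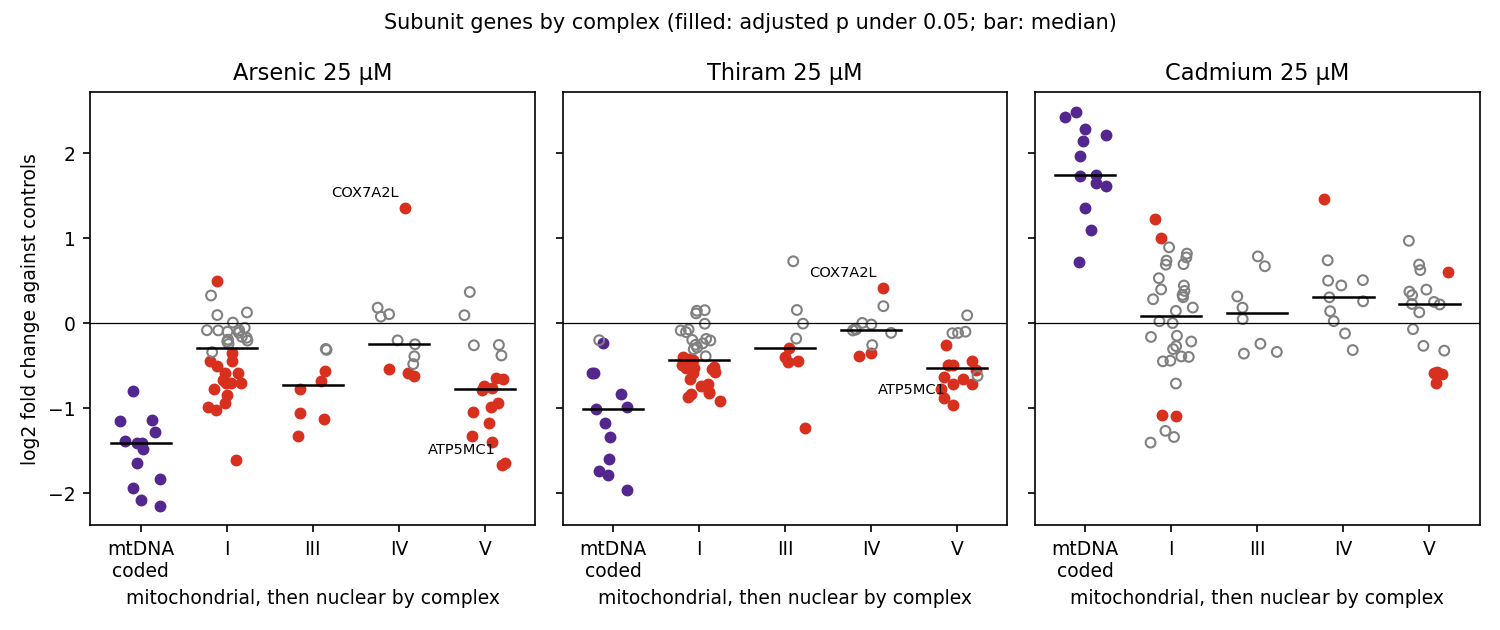
Log2 fold change against the controls (y axis) of each subunit gene, mitochondrially coded genes first and nuclear coded genes by complex (x axis), at 25 µM of arsenic, thiram and cadmium; filled points have an adjusted p under 0.05 and bars are medians. All 13 mitochondrially coded genes are below 0 in arsenic and thiram and above 0 in cadmium. Among genes placed in complex IV by name, COX7A2L is the 1 filled point above 0 in arsenic (1.36) and in thiram (0.42).

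Promoters of nuclear members were read because NRF1, GABPA and YY1 are known regulators of respiratory genes. Of the 72 nuclear members, 57 had an entry among the RefSeq promoter windows (GRCh38.p14, 250 bases before to 50 after the start). The letters searched, on both strands, were GCGCATG from the NRF1 motif, CCGGAAG from the GABPA motif and ATGGCGG from the YY1 motif, and matches may share bases. The NRF1 letters stood in 12 of the 57 members (21.1%), against 4.67% of all 27305 windows, the GABPA letters in 16 (28.1%), against 10.7%, and the YY1 letters in 14 (24.6%), against 5.72%. Called lower in arsenic were 7 of the 12 with the NRF1 letters and 25 of the 45 without, 7 of 16 and 25 of 41 for GABPA, and 7 of 14 and 25 of 43 for YY1. The 27305 windows were not matched to the members for base content or level, so these shares do not show a trait particular to the members. A match is a run of letters and not a binding site. The 200 bases before the start are shown for 5 members that fell or rose most within their complex or carry a motif, 5′ to 3′ on the strand of the gene, with matches to any of the 3 sets of letters in capitals.
ATP5F1C, chr10:7787977-7788176, plus strand: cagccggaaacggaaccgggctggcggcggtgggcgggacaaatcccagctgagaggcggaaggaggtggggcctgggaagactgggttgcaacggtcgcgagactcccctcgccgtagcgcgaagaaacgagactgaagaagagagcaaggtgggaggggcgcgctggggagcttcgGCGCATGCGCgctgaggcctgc
NDUFB4, chr3:120596136-120596335, plus strand: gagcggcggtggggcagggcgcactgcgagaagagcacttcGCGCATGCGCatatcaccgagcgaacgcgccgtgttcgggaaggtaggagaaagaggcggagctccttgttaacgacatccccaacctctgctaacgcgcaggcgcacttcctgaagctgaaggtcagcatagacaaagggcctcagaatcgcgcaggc
UQCR11, chr19:1605463-1605662, minus strand: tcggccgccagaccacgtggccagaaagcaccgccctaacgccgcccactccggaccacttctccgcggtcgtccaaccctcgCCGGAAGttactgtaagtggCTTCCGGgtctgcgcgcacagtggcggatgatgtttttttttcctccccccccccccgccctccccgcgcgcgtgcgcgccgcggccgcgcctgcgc
ATP5MC1, chr17:48892587-48892786, plus strand: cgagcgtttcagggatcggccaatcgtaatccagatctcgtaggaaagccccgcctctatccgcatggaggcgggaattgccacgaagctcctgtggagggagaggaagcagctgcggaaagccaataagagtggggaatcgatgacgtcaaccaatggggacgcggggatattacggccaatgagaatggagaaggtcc
COX7A2L, chr2:42361218-42361417, minus strand: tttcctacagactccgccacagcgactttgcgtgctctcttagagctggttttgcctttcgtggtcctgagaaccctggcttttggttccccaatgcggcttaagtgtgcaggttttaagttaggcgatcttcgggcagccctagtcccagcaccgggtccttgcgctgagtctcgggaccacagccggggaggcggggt
ATP5F1C and NDUFB4 hold the NRF1 letters on both strands, overlapping in 1 run, and UQCR11 holds the GABPA letters once on each strand. ATP5MC1, which fell in arsenic and thiram, and COX7A2L, which rose in both, hold none of the letters in this stretch. With arsenic ATP5F1C, the gamma subunit of the rotor, fell by 0.94 (SE 0.11, adjusted p = 1.5e-12), and NDUFB4 had a log2 fold change of 0.13 (SE 0.21, adjusted p = 0.67).

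With thiram at 25 µM 12 of the 13 mitochondrially coded members fell, against 12.2% of all genes called lower (25.9% called in either direction, 13.7% higher). They held 2.39%, 2.01%, 1.89% and 1.81% of the counts in the 4 libraries, against 4.37% to 5.17% in the 15 controls, so no library reached the controls. The median log2 fold change was -1.01, with -0.39 for the nuclear coded members and -0.11 for all genes. The genes ranged from -1.96 for MT-CO1 to -0.20 for MT-ND2. MT-CO1 had 3928, 3053, 2264 and 2108 CPM, against 9578 to 13521 CPM with a median of 11225 (SE 0.09, adjusted p = 5.6e-38), below every control. The other cytochrome c oxidase subunits fell nearly as far, MT-CO2 by 1.74 (SE 0.10) and MT-CO3 by 1.78 (SE 0.11), and MT-CYB fell by 1.17 (SE 0.08). MT-ND2, which was not called, had 1383, 1110.4, 1275 and 1331 CPM, against 1192 to 1741 CPM with a median of 1427 (log2 fold change -0.20, SE 0.13, adjusted p = 0.29), and 3 of its libraries lay within the control range. MT-ND4L was barely past the threshold at -0.23 (SE 0.08, adjusted p = 0.029), with 1652, 1339.7, 1937 and 1316 CPM, against 1451 to 2187 CPM with a median of 1776. Between these, MT-ND3, MT-ND5, MT-ND6, MT-ND1 and MT-ND4 fell by 1.60, 1.34, 1.01, 0.83 and 0.59.

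For some genes, though not for the ratio of mitochondrial to nuclear coded reads, the thiram libraries divided by number set. MT-ATP6 had 1293, 991, 589.6 and 633 CPM, against 1559.5 to 1919.9 CPM with a median of 1766, all below the controls, with libraries 3 and 4 lower than 1 and 2. It fell by 0.99 (SE 0.09, adjusted p = 5.8e-17) over all 4 libraries, by 0.67 within the first set and by 1.49 within the last. MT-CO1 fell by 1.62 and 2.41 in the 2 sets. MT-ATP8 had 91.3, 34.4, 36.6 and 16.6 CPM, against 58.8 to 96.8 CPM with a median of 72.3, with library 1 inside the control range (-0.59, SE 0.18, adjusted p = 0.0061). For the rRNA MT-RNR2 the same libraries stood apart in the other direction: it had 30400.2, 25054, 91221 and 85626 CPM, against 29925 to 54657 CPM with a median of 38855, with libraries 3 and 4 above every control. Its log2 fold change was 0.54 (SE 0.18, adjusted p = 0.016), but -0.33 in the first set and 0.94 in the last. The 3 RNAs that stay in the nucleus were all higher, with summed levels of 4162 to 5559 CPM, against 1702 to 2999 CPM; their part in the fall of the members was not tested.

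**Figure D3:**
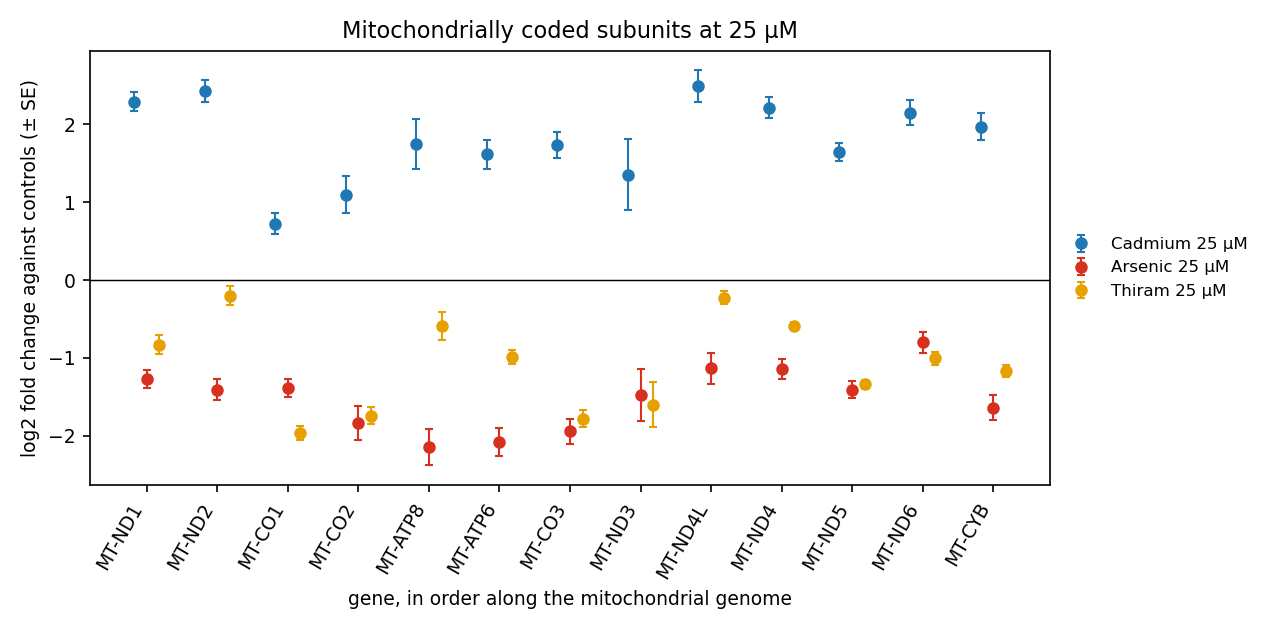
Log2 fold change against the controls, with SE bars (y axis), of the 13 mitochondrially coded subunit genes in their order along chrM (x axis), for the groups named in the legend. In cadmium every gene is above 0, lowest at MT-CO1 (0.72); in arsenic every gene is below 0, lowest at MT-ATP8 (-2.15); in thiram MT-CO1 is lowest (-1.96) and MT-ND2 nearest to 0 (-0.20).

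Of the 72 nuclear coded members 39 fell and 1 rose with thiram at 25 µM, beside 12.2% lower and 13.7% higher over all genes; DESeq2 gave 37 lower and 6 higher. By complex, 19 of 34 were lower in complex I (median -0.43), 5 of 9 in complex III (median -0.29), 2 lower and 1 higher of 11 in complex IV (median -0.07) and 13 of 18 lower in complex V (median -0.53). For 11 of the 39 all libraries lay outside the control range. UQCR11 had 33.4, 18.4, 14.2 and 28.6 CPM, against 36.1 to 88.7 CPM with a median of 54.1, all below the controls, and fell by 1.23 (SE 0.23, adjusted p = 5.5e-06). In complex I NDUFB1 and NDUFB10, both accessory subunits of the membrane arm, fell by 0.92 and 0.87, with overlap. In complex V ATP5MC1 had 151, 97.3, 59.1 and 80.3 CPM, against 132 to 227 CPM with a median of 191, with library 1 inside the control range, and fell by 0.96 (SE 0.13, adjusted p = 1.6e-09). ATP5PO, a subunit of the peripheral stalk, fell by 0.88 without overlap, and ATP5IF1 by 0.63 with overlap. In complex IV COX5B and COX5A fell by 0.38 and 0.35, and COX7A2L rose: it had 164, 167, 167 and 145 CPM, against 82.2 to 138 CPM with a median of 118, above every control (0.42, SE 0.10, adjusted p = 0.00041). UQCRHL had a log2 fold change of 0.73 (SE 0.38, adjusted p = 0.16).

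Arsenic and thiram were on different plates with different controls, so their calls can be set side by side. Of the mitochondrially coded members, 12 were lower in both, and MT-ND2 was called in arsenic alone. Of the nuclear coded members 30 were lower in both, which is 78.9% of those lower in arsenic and 76.9% of those lower in thiram. Of all 20589 genes tested in both, 2025 were lower in both, 45.9% of those lower in arsenic and 78.2% of those lower in thiram, so from the side of thiram the share among the members is near that of all genes. Lower in arsenic alone were ATP5ME, COX7B, COX8A, NDUFA2, NDUFB2, NDUFB7, NDUFB9 and UQCRC2, and lower in thiram alone ATP5PD, COX5B, NDUFA10, NDUFB1, NDUFB11, NDUFB5, NDUFS1, NDUFS5 and NDUFV3. The difference between the 2 chemicals was not tested for any of them.

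Cadmium at 25 µM went the other way for the mitochondrially coded members: all 13 were higher, against 5.67% of all genes called higher (11.05% called in either direction, 5.38% lower). This group has 2 libraries with totals of 1.43 M and 1.45 M, the smallest in the fits. The 13 genes held 7.21% and 8.65% of the counts, and the nuclear coded members 0.793% and 0.707%. The median log2 fold change was 1.75 for the mitochondrially coded members, 0.18 for the nuclear coded ones and -1.42 for all genes tested; DESeq2 put these at 1.99, 0.40 and 0.07. MT-ND4L had 9932 and 12886 CPM, against 1272 to 2731 CPM with a median of 2268 in the controls, the largest rise at 2.49 (SE 0.20, adjusted p = 1.99e-18). MT-ND2 had 7549 and 9366 CPM, against 1123 to 1956 CPM with a median of 1686 (2.43, SE 0.14, adjusted p = 1.2e-27). MT-CO1 rose least, with 15833 and 20719.7 CPM, against 8589 to 14167 CPM with a median of 11416 (0.72, SE 0.13, adjusted p = 1.97e-05). Both cadmium libraries lay above every control for all 13 genes. The other complex I members rose by 1.36 (MT-ND3) to 2.29 (MT-ND1), MT-CYB by 1.97, MT-CO2 and MT-CO3 by 1.10 and 1.74, and MT-ATP6 and MT-ATP8 by 1.61 and 1.75. Both cadmium libraries are of the first number set, while these values use the controls of both sets. Within the first set the rises were smaller: 2.24 for MT-ND2, 2.21 for MT-ND4L, 1.73 for MT-CYB, 0.96 for MT-ND3 and 0.58 for MT-CO1. At 2.5 µM MT-ND4L had 1457 to 1966 CPM and MT-CO1 had 10694 to 12615 CPM, both within the range of the controls.

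The mitochondrial rRNAs were higher in cadmium too: they took 32.1% and 38.2% of all counts in the cadmium libraries, against 3.95% to 6.20% in the controls. The log2 fold changes were 3.72 for MT-RNR2 (SE 0.18) and 3.63 for MT-RNR1, the small rRNA. MALAT1 was higher too, at 1.502, and the summed level of the RNAs that stay in the nucleus was 3561 and 3840 CPM; their part in the result was not tested. Of the 71 nuclear coded members 4 were higher and 6 lower, near the background of 5.67% and 5.38% over all genes in the same fit. The split moved with the scaling: RLE gave 6 higher and 5 lower, and DESeq2 21 higher and 10 lower. The shares of all genes called under RLE and DESeq2 are not reported here, so the nearness to the background holds for the TMM fit alone. With 1 library left out the count in that fit fell to as few as 1. COX6B1, a small subunit facing the intermembrane space, had 350.2 and 528 CPM, against 85.6 to 218 CPM with a median of 159.6 (1.46, SE 0.35, adjusted p = 0.0015), both above the controls. NDUFB4 and NDUFS4, accessory subunits of complex I, rose by 1.23 (adjusted p = 0.019) and 1.003 (adjusted p = 0.038), and ATP5F1D by 0.60 (adjusted p = 0.0303). NDUFS1, a core subunit of the electron-entry arm, fell by 1.09, and in complex V ATP5PB, ATP5F1A, ATP5MC3 and ATP5F1B fell by 0.70, 0.60, 0.58 and 0.57.

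**Figure D4:**
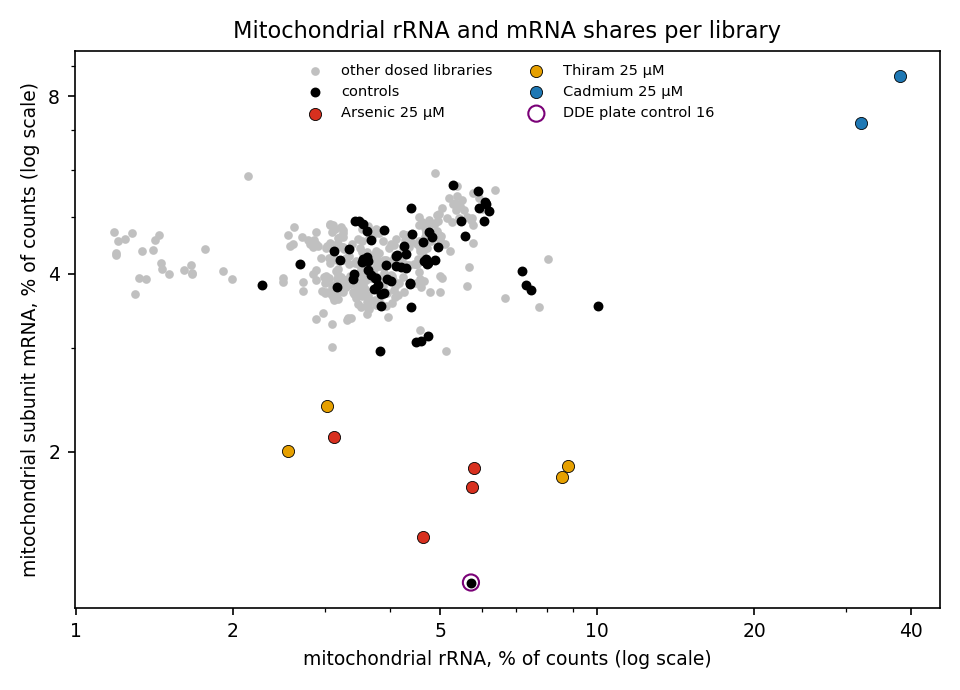
Share of counts in the 13 mitochondrially coded subunit genes (y axis, %, log scale) against the share in the 2 mitochondrial rRNAs (x axis, %, log scale), 1 point per library. Arsenic and thiram at 25 µM hold low mRNA shares (1.44% to 2.39%) at rRNA shares of 2.55% to 8.81%, cadmium at 25 µM is high on both axes (32.1% and 38.2% rRNA), and the circled control of the DDE plate holds 1.202% mRNA.

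Set directly against cadmium at 25 µM in the same fit, arsenic was lower for all 13 mitochondrially coded members, against 4.32% of all genes called lower (8.56% called, 4.24% higher), with a median of -3.57. The difference ran from -2.11 for MT-CO1 (SE 0.16, adjusted p = 1.5e-20) to -3.90 for MT-ATP8 (SE 0.39, adjusted p = 7.3e-14). Of the nuclear coded members 16 were lower and 2 higher in arsenic. ATP5F1D, which fell in arsenic and rose in cadmium, differed by -2.24 (SE 0.22, adjusted p = 7.3e-14). COX7A2L was higher in arsenic by 1.48 (SE 0.23, adjusted p = 8.01e-07), and NDUFS1 by 0.90 (SE 0.26, adjusted p = 0.016), the latter lost without library 1 or library 2. The median of all genes in this comparison was 0.81. The cadmium libraries are of the first number set alone and the arsenic libraries of both sets, and the comparison holds no term for this.

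Genes that serve the complexes were set beside the share of all genes called in arsenic at 25 µM, 18.2% lower and 23.2% higher. Of 77 genes of the mitochondrial ribosome, which translates the 13 mRNAs, 61 were lower and 0 higher (median -0.77), from MRPL34 at -2.11 to MRPL45 at -0.29. Of 15 genes of mitochondrial transcription and replication 12 were lower, from TWNK, the replicative helicase, at -2.26 to SSBP1, which binds single-stranded DNA, at -0.30; TFAM, which packs the mitochondrial DNA and starts its transcription, had -1.004. Of 17 genes of mitochondrial RNA handling 13 were lower, from PNPT1, an RNA-degrading enzyme, at -1.65 to FASTK at -0.30. Lower were also 3 of 4 complex II genes (SDHA -1.07 to SDHB -0.38) and both cytochrome c genes (CYC1, cytochrome c1 of complex III, -1.36, and CYCS -0.59). In the tricarboxylic acid cycle 11 of 13 were lower, SUCLG2 lowest at -1.46, and in protein import 12 of 15, from TOMM5 at -2.44 to the receptor TOMM20 at -0.40. Of the assembly factors, 10 of 16 for complex I were lower (NDUFAF4 -1.56 to TIMMDC1 -0.28) and 6 of 6 for complex III (BCS1L, which inserts the Rieske protein, -1.84 to LYRM7 -0.83). For complex IV 12 of 21 were lower and 2 higher (PET117 -1.83 to COX19, a copper-related factor, 1.29), and for complex V 1 of 5 was lower (TMEM70 -0.64), a share near the background. Of 9 regulators 3 were higher and 3 lower, and the coactivator PPARGC1B and its paralogue PPARGC1A were at the ends: PPARGC1B had 0.558 to 2.86 CPM, against 11.2 to 32.5 (-3.61), and PPARGC1A 0.359 to 3.67 CPM, against 0 to 1.09 (3.43). Of 16 stress response genes 10 were higher and 4 lower, CLPP, a protease subunit, lowest at -0.76. The hormone FGF21 was at 0 in every control and had 7.29, 7.54, 6.24 and 7.26 CPM in the arsenic libraries. The hormone GDF15 and the stress factor DDIT3 were higher by 6.11 and 5.58. The epithelial markers themselves were 2 higher and 7 lower of 9, with a summed level of 3202 to 3909 CPM, against 3152 to 3820. Of the markers of other cell types, the fibroblast markers had COL1A1 higher (1.199) and DCN lower (-1.98) among 5 tested and summed to 12.2 to 46.2 CPM, against 21.6 to 146 CPM in the controls. The immune markers summed to 0.780 to 3.71 CPM, against 0 to 0.392, with CD68 called higher from 0 in every control to 0, 1.44, 0.78 and 0.718 CPM, and the endothelial markers to 0 to 3.64, against 0 to 5.35. Their part in the changes of the members was not tested.

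In thiram at 25 µM, where 12.2% of all genes were lower and 13.7% higher, the ribosome had 45 lower and 1 higher of 77 (MRPL34 -1.36 to MRPL18 0.81). Transcription and replication had 6 lower and 2 higher of 15, POLG, the DNA polymerase, highest at 1.06 and TFB1M lowest at -1.51, and RNA handling had 6 lower of 17 (TBRG4 -0.68 to ELAC2 -0.30). The tricarboxylic acid cycle had 7 lower and 1 higher of 13 (SUCLG2 -0.70 to DLST 1.15), and import 9 lower and 1 higher of 15 (TOMM5 -1.86 to TIMM44 0.39). Of 9 regulators 3 were higher, the subunits of the GABP factor GABPB1 (1.65) and GABPA (1.04), and CREB1 (0.44). Of 15 stress genes 8 were higher and 2 lower, from DNAJA3, a chaperone, at -0.67 to ASNS, which makes asparagine, at 5.59, with DDIT3 at 4.13. Complex II had 3 of 4 lower (SDHA -0.92 to SDHC -0.50), and CYC1 was lower at -0.85. The assembly lists had 5 of 16 lower for complex I (ACAD9 -1.07 to TIMMDC1 -0.44), 4 of 6 for complex III (UQCC3 -1.200 to UQCC1 -0.52) and 1 of 5 for complex V (ATPAF1 -0.72), and for complex IV 7 lower and 2 higher of 21 (COA5 -1.21 to the copper chaperone COX17 0.76). The epithelial markers were 3 higher and 3 lower of 9, the fibroblast marker DCN was lower (-2.16), and the immune markers summed to at most 3.54 CPM; their part was not tested.

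In cadmium at 25 µM, where 5.38% of all genes were lower and 5.67% higher, the ribosome had 16 lower and 4 higher of 77 (MRPL10 -2.76 to MRPL52 1.15), and RNA handling 8 lower and 1 higher of 17 (FASTKD5 -2.72 to REXO2 0.72). Transcription and replication had 4 lower of 15, TFAM at -2.23 and TFB1M with 0 and 1.40 CPM, against 12.1 to 38.5 CPM. Import had 4 lower of 15 (TIMM9 -2.67 to TOMM20 -0.75), the tricarboxylic acid cycle 3 lower of 13 (SUCLG2 -1.21 to FH -0.95), and SDHD of complex II, CYC1 and the regulator ESRRA were lower at -1.17, -1.23 and -1.24. Of the assembly factors 3 of 16 for complex I were lower, NDUFAF5 at 0 in both libraries, against 13.3 to 27.1 CPM, and FOXRED1 at -1.42; TTC19 of complex III had -1.52, and complex IV had 3 lower and 2 higher of 21 (COA7 -4.47 to COX19 1.66). Of 16 stress genes 5 were higher and 3 lower, CLPX with 0 and 8.40 CPM, against 43.8 to 76.8, and DDIT3 higher by 6.06. The epithelial markers were 2 higher and 3 lower of 9 with a summed level of 7899 and 8234 CPM, against 3152 to 3820, and the immune markers summed to at most 2.51 CPM; their part was not tested.

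With MPB at 25 µM the changes were smaller and spread over both sets: 10 of 13 mitochondrially coded and 29 of 72 nuclear coded members fell, against 0.946% of all genes called lower (1.38% in either direction, 0.430% higher). The medians were -0.28 and -0.38, with -0.03 for all genes, and all 85 members had a log2 fold change below 0. By complex, 10 of 11 nuclear coded members of complex IV fell, 11 of 34 of complex I, 2 of 9 of complex III and 6 of 18 of complex V. COX5B, a peripheral subunit of cytochrome c oxidase, had 143, 156, 218 and 176 CPM, against 214 to 321 CPM with a median of 253, and fell by 0.56 (SE 0.10, adjusted p = 0.00056), with library 3 inside the control range. NDUFA1, a small membrane-arm subunit, had 120.2, 96.7, 181 and 99.954 CPM, against 133 to 236 CPM with a median of 195, and fell by 0.64 (SE 0.13, adjusted p = 0.0022). MT-ND3 had 79.4, 80.2, 154 and 84.3 CPM, against 115 to 224 CPM with a median of 168, and fell by 0.67 (SE 0.16, adjusted p = 0.0084). In all 3 genes library 3 was the highest of the 4 and lay within the controls. NDUFB2, UQCR10, UQCRH, COX8A, ATP5MD and ATP5F1E fell by 0.60, 0.58, 0.41, 0.50, 0.56 and 0.48, and UQCRHL had -0.98 without a call (adjusted p = 0.25). These calls lean on single libraries: without library 1 of each dosed group no member was called, and without library 2 no mitochondrially coded and 7 nuclear coded members were.

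The rRNAs fell too, MT-RNR1 by 0.45 and MT-RNR2 by 0.37 (adjusted p = 0.00498 and 0.0084), while the genes around the complexes mostly had no call: 2 of 77 ribosome genes, 1 of 15 import genes and 1 of 16 complex I assembly genes were lower (MRPS21 -0.47, MRPS14 -0.43, TIMM8B -0.52 and NDUFAF2 -0.68). MALAT1 had a log2 fold change of -0.09 (adjusted p = 0.803). At 2.5 µM MPB had 6 mitochondrially coded and 17 nuclear coded members lower, against 0.650% of all genes called lower (0.915% in either direction). Within the first set the count was 0, and within the last 11 and 50. The shares of all genes called within the sets are not reported here. MT-ATP6 fell there by 0.41, UQCR10 by 0.61 and NDUFS7 by 0.55. BPA at 2.5 µM had 3 mitochondrially coded and 21 nuclear coded members lower, against 0.520% of all genes called lower (0.605% in either direction), 9 of the 21 in complex IV, with 4 to 18 nuclear coded calls when 1 library was left out. NDUFB2, a complex I accessory subunit, had 88.4, 79.6, 79.9 and 97.1 CPM, against 102 to 179 CPM with a median of 131, below every control, and fell by 0.58 (SE 0.11, adjusted p = 0.00198). MT-ND3, MT-CO2 and MT-ND4L fell by 0.67, 0.35 and 0.27. The 2 chemicals share their 15 controls, so their lists are given side by side and not compared. At 25 µM BPA had no member called over all 4 libraries. Within the last set 6 mitochondrially coded and 32 nuclear coded members were lower, and the share of all genes called there is not reported here. BPA at 0.025 µM had MT-ND3, NDUFA1 and UQCRQ lower (0.112% of all genes lower, 0.130% in either direction) by 0.69, 0.61 and 0.47. MPB at 0.25 µM had MT-ND4L lower by 0.31 (adjusted p = 0.042), beside 0.0269% of all genes lower (0.0583% in either direction).

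For MPB and BPA the log2 fold changes went with the length of the gene model. Across the 72 nuclear coded members, which are genes of the same libraries and not replicates, Spearman's rho between exon length and log2 fold change was 0.60 for MPB at 25 µM and 0.55 for BPA at 2.5 µM, the shorter genes lying lower. In MPB 19 of the 36 genes at or under the median length of 2324 bases fell and 10 of the 36 longer ones, and in BPA 13 and 8. At 2.5 µM MPB the count went the other way, 6 of the shorter and 11 of the longer genes, with rho 0.40, and at 0.025 µM MPB rho was -0.06. Groups with no member called also reached such values, 0.54 for BPF at 0.25 µM and 0.54 for DCB_14 at 2.5 µM. In arsenic, thiram and cadmium at 25 µM rho was -0.05, -0.17 and -0.35. Between the last and first numbered controls rho was -0.49 on 3206-AT, the plate of MPB and BPA, and 0.53, 0.45 and 0.35 on plates 3153-AT, 3240-AT and 3284-AT. The part of length in the MPB and BPA calls was not tested.

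**Figure D5:**
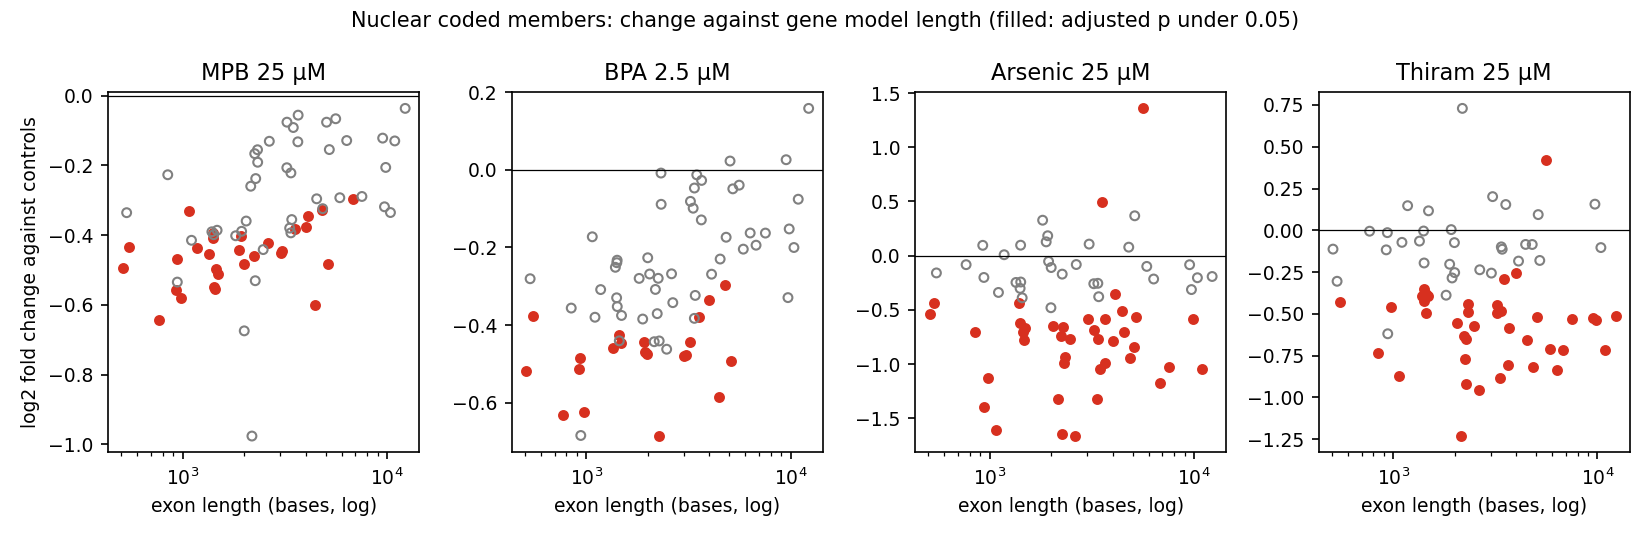
Log2 fold change against the controls (y axis, a scale of its own in each panel) of the nuclear coded subunit genes against the exon length of their gene model (x axis, bases, log scale); filled points have an adjusted p under 0.05. In MPB at 25 µM and BPA at 2.5 µM the short genes lie lower (rho 0.60 and 0.55), and in arsenic and thiram at 25 µM rho is near 0 (-0.05 and -0.17).

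The remaining calls concerned few members. With DDE at 25 µM NDUFA3, NDUFS6 and ATP5MC1 were higher, 3 of 84 members beside 3.56% of all genes higher (7.77% in either direction), so the share is near the background. NDUFA3, a small complex I subunit, had 20.007, 20.2, 17.7 and 21.2 CPM, against 10.6 to 16.8 CPM with a median of 11.8 (0.69, SE 0.21, adjusted p = 0.046), above every control. NDUFS6, which carries a zinc site, and ATP5MC1 rose by 0.69 and 0.62 (adjusted p = 0.036 and 0.037); without control 16, only ATP5MC1 was called (0.64, adjusted p = 0.047). With copper at 25 µM MT-ND5 fell by 0.32 (SE 0.10, adjusted p = 0.045) and ATP5PB, part of the peripheral stalk, by 0.33 (SE 0.10, adjusted p = 0.037). These are 1 of 13 mitochondrially coded and 1 of 71 nuclear coded members, beside 2.21% of all genes lower (5.09% in either direction). Over both sets together the share is near the background. With lead at 25 µM ATP5F1D fell by 0.37 (SE 0.12, adjusted p = 0.0496). It is 1 of 71 nuclear coded members, beside 1.70% of all genes lower (3.85% in either direction), so the share is again near the background. Arsenic at 2.5 µM had ATP5F1B, ATP5F1A and UQCRC1, a core protein of complex III, lower by 0.35, 0.30 and 0.34, beside 1.06% of all genes lower (1.96% in either direction). ATP5F1A had 776, 782, 469 and 613 CPM there, against 603 to 943 CPM with a median of 812, so library 3 alone lay below the controls. PFDA at 0.25 µM had MT-CO3, MT-ND6, NDUFB9 and COX6A1 higher, beside 0.519% of all genes higher (0.642% in either direction). MT-CO3 had 2595, 1010.1, 813 and 761 CPM, against 681 to 1069 CPM with a median of 843 (0.60, SE 0.13, adjusted p = 0.013), so library 1, which held 5.85% of its counts in the mitochondrially coded members against 3.55% to 4.06% in the other 3, alone lay above the controls; without it MT-ND6 had -0.04.

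Linear trends over the 4 doses, which do not use the controls, gave the slope of a straight line as log2 change per 10-fold step of dose. A change at the top dose alone gives a slope as well. For arsenic all 13 mitochondrially coded members fell with dose, and 24 nuclear coded members fell and 3 rose, beside 15.6% of all genes falling and 14.2% rising (29.7% in either direction). The slope was -0.59 (SE 0.06, adjusted p = 9.03e-14) for MT-ATP6 and 0.44 (SE 0.04, adjusted p = 7.3e-17) for COX7A2L. Against the controls, from the lowest dose to 25 µM, MT-ATP6 had log2 fold changes of -0.13, -0.15, -0.17 and -2.08. COX7A2L had -0.05, -0.16, 0.02 and 1.36, so neither slope is an even change per step. For thiram 11 mitochondrially coded members fell, and 33 nuclear coded members fell and 1 rose, beside 9.27% falling and 9.24% rising (18.5% in either direction). MT-CO1 had a slope of -0.58 (SE 0.03, adjusted p = 3.2e-31) and COX7A2L of 0.13 (SE 0.04, adjusted p = 0.0076), the latter lost without library 1 or library 3 of each dose. For cadmium 12 mitochondrially coded members rose, and 4 nuclear coded members rose and 5 fell, beside 4.18% rising and 4.78% falling (8.96% in either direction). MT-ND4L had a slope of 0.82 (SE 0.08, adjusted p = 3.8e-13). For MT-CO1 the change lay at the top dose: at 2.5 µM it had 8480 to 10804 CPM in arsenic, 10362 to 12012 CPM in thiram and 10694 to 12615 CPM in cadmium, overlapping the controls in each. Phenanthrene had 1 further call, MT-CO1 with a slope of 0.13 (SE 0.03, adjusted p = 0.0055), beside 0.0822% of all genes rising (0.221% in either direction). Its libraries ran from 7509 to 9274 CPM at 0.025 µM and from 10398 to 11466 CPM at 25 µM, against 8564 to 11958 CPM with a median of 9881 in the controls. At 25 µM every library lay within the controls (log2 fold change 0.15, adjusted p = 0.92 in the edgeR test). At 0.025 µM libraries 1 and 2 lay below them. The call was lost without library 1 or library 2 of each dose.

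In copper, lead, mercury and PFOA the libraries of the same number deviated together, and a replicate block for the number was added to the trend. The block was fitted over all dosed libraries of a plate. It was therefore shared with arsenic and cadmium, and for PFOA with the other chemicals of its plate. In those chemicals the libraries of the same number did not all deviate together. Copper and lead had no member called without the block (11 and 3 members at an unadjusted p under 0.05 in the edgeR test). With it, copper had 11 mitochondrially coded and 6 nuclear coded members falling with dose, beside 4.97% of all genes called in either direction. MT-CO3 had a slope of -0.17 (adjusted p = 1.8e-06) and NDUFB10 of -0.15 (adjusted p = 0.00034). MT-CO3 had 1096, 1443, 983 and 1096 CPM at 0.025 µM and 888, 803, 888 and 612 CPM at 25 µM, so the end doses did not overlap. The controls ran from 700 to 1466 CPM with a median of 1056, and at 25 µM library 4 alone lay below them. Against the controls MT-CO3 was not called at 25 µM (log2 fold change -0.37, adjusted p = 0.12 in the edgeR test). Lead went the other way under the block, with 2 mitochondrially coded and 6 nuclear coded members rising, beside 3.55% of all genes called. MT-ND4L had a slope of 0.11 (adjusted p = 0.00064), MT-ATP6 of 0.11 (adjusted p = 0.0018) and NDUFA4 of 0.12 (adjusted p = 0.0026). MT-ND4L had 2437, 2376, 1610 and 1544 CPM at 0.025 µM and 3357, 2999.7, 1818 and 2030.3 CPM at 25 µM, each library above that of its number at the lowest dose. The controls ran from 1272 to 2731 CPM with a median of 2268, and at 25 µM libraries 1 and 2 lay above them. Against the controls MT-ND4L was not called at 25 µM (log2 fold change 0.33, adjusted p = 0.39 in the edgeR test). Mercury and PFOA had no member called with the block or without it (2 and 0 members at an unadjusted p under 0.05 without the block), beside 0.275% and 0% of all genes called with it.

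The untreated controls show how far the members move with no chemical. On plate 3153-AT 12 mitochondrially coded and 43 nuclear coded members were lower in the 7 last than in the 8 first controls, beside 3.39% of all genes lower (5.42% in either direction). MT-CYB had 2026 to 2654 CPM (median 2291) in the first and 1339 to 1558 (median 1479.9) in the last, without overlap (-0.66, SE 0.12, adjusted p = 0.00016). MT-ND3 had 246 to 311 CPM in the first and 84.8 to 130.0 CPM in the last (-1.36, SE 0.27), and MT-ATP8 differed by -0.89. These differences between untreated wells are as large as several of the changes above. On plate 3284-AT 2 mitochondrially coded and 11 nuclear coded members were lower in the last controls, beside 1.23% of all genes lower (1.55% in either direction), led by ATP5IF1 with 144 to 196 CPM in the first and 85.2 to 134 CPM in the last (-0.66, adjusted p = 0.00015), then NDUFA1 and MT-CO2 with -0.66 and -0.39. On plate 3206-AT the differences were 0.45 for MT-ND3 and -0.18 for ATP5F1B, 2 calls beside 0.695% of all genes higher and 0.995% lower (1.69% in either direction). On plate 3240-AT no member was called, beside 0.148% of all genes called in either direction. There, 21 members had an unadjusted p under 0.05 in the edgeR test, a threshold for which the share of all genes is not reported here. Between the solvents, 3 nuclear coded members were higher in the 4 water than in the 12 DMSO controls of plate 3240-AT, beside 2.13% of all genes higher (4.08% in either direction): ATP5PB by 0.24 (SE 0.07, adjusted p = 0.026), NDUFB9 by 0.35 (SE 0.10, adjusted p = 0.034) and UQCRC2 by 0.22 (SE 0.07, adjusted p = 0.037).

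Counted over the 84 groups, MT-ND4L was the member called most often, higher in 1 and lower in 6. MT-CO2 and MT-ND3 were each higher in 1 and lower in 5 groups. Among the nuclear coded members ATP5MC2, ATP5MC3 and UQCR10 were each lower in 5 groups and higher in none. Of the 85 members 10 were called in no group: ATP5MG and ATP5MPL of complex V, NDUFA12, NDUFA6, NDUFA9, NDUFB3, NDUFB8 and NDUFC2 of complex I, and UQCRB and UQCRHL of complex III, the last tested in 60 groups. Their log2 fold changes over the groups reached from -1.27 (NDUFA9) to 0.73 (UQCRHL). The groups on a plate share controls, and the calls per gene over all genes are not reported here. These counts are therefore a description and do not set the members apart from other genes.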

How the data were processed

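The authors deposited raw read counts per gene for each library. Per the submitters' processing notes, FastQC, MultiQC, STAR and featureCounts were used with GRCh38; roles and versions are not stated there. The mapping of each library to its group follows the labels, which call the replicates of a dose biological; as all are wells of 1 passage, p-values measure the spread between wells. One library labelled cadmium 25 µM that carries another plate's barcode was set aside. No pair of libraries had identical counts (0 pairs).

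Counts were fitted per plate with edgeR 4.0.16 (R 4.3.3, limma 3.58.1): filterByExpr by group with a minimum count of 10 and minimum total of 15, TMM scaling and the quasi-likelihood F test of each dose against the controls of its plate and solvent. Benjamini-Hochberg adjustment ran over all genes tested, and an adjusted p under 0.05 was called. Dose trends used the 4 doses. The alternatives were RLE scaling, DESeq2 1.42.0, no filter, the sets of first and last numbers, a replicate block, each group with its controls alone, and leaving out each replicate. The edgeR fit was also run on simulated counts with a single fixed spread and no difference between the number sets. That run cannot test calls that move with the number sets. Total counts ran from 1.43 M to 25.8 M per library in the fits, and their size limits precision.

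MT-ATP6 and MT-ATP8 end in P plus a digit but are named by the rule and were kept; 39 names ending so were left out. Members and lists were chosen with earlier results of these data known. Genes named in the text are, where at least 10 members were called at 25 µM, every called mitochondrially coded member and the 2 lowest and 2 highest called nuclear coded members of each complex, up to 5 by smallest p for other chemicals at 25 µM, up to 3 elsewhere, the highest and lowest called gene of a pathway list (FGF21, TFB1M, CLPX and NDUFAF5 by level where counts were at or near 0), and ATP5MC1, ATP5MC2, ATP5MC3, COX7A2L, ATP5IF1 and UQCRHL; further genes were chosen after their values were seen. Libraries with the same number were taken as paired where every correlation of their deviations from the group means was over 0.1: copper (lowest 0.152), lead (0.300), mercury (0.275) and PFOA (0.173). The replicate block itself covered all dosed libraries of a plate, those of the other chemicals included. Promoter letters for NRF1 and YY1 are cores of longer motifs that had been searched first; the shorter letters were taken up after those matches were seen. The values of some genes that the rule names are not reported here.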

Additional observations from a re-analysis of the deposited data

Results flagged for a closer look

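The log2 ratio of mitochondrial to nuclear coded subunit reads was checked for a library far from the others of its group in 83 groups, and 4 were found, where chance gives about 5% of groups. Control 16 of the DDE plate had 0.71, against 1.79 to 2.05 in the other controls. Library 1 of cadmium at 0.025 µM had 1.81, against 1.90 to 1.91. Library 2 of PFOS at 0.25 µM had 1.66, against 1.71 to 1.72. Library 3 of PCB187 at 0.25 µM had 1.91, against 1.83 to 1.84. Control 16 alone lay far outside the spread of other control groups.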

How the results depend on the processing

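Arsenic and thiram kept a lower and cadmium a higher ratio of mitochondrial to nuclear coded reads with each replicate left out (-1.05 to -0.89, -0.87 to -0.79 and 1.38 to 1.81). Nuclear coded calls moved more. First and last set mean the libraries numbered 1 and 2 or 3 and 4 with the matching controls. The shares of all genes called under these alternatives are not reported here, so the counts show only how far the calls moved. For cadmium at 25 µM the 10 became 31 under DESeq2, 17 with the group and its controls alone and 1 to 10 with a replicate left out. For thiram the 40 became 24 in the last set and 27 to 42. For MPB at 25 µM the 10 mitochondrially coded calls became 3 in the last set and 0 to 11, and the 29 nuclear coded ones 46 in the first set, 5 in the last and 0 to 41. For MPB at 2.5 µM the 6 became 11 without the filter, 0 in the first set, 11 in the last and 1 to 11, and the 17 became 34 without the filter, 30 with a number-set term, 0 in the first set, 50 in the last and 0 to 42. For BPA at 2.5 µM the 3 became 6 in the last set and 1 to 2, and the 21 became 13 in the first set and 4 to 18. Over the other chemicals at 25 µM the 6 calls became 11 under DESeq2, 36 without the filter and 1 to 7; without DDE the 3 became 29 with a number-set term, 47 in the first set and 65 in the last. DDE had 3, then 1 without control 16, 15 with a term that set some label numbers, 16 among them, apart from the rest, and 0 to 3. The labels used here state no well position. Arsenic against cadmium had 18 nuclear coded calls, 40 under DESeq2 and 7 to 15. Water against DMSO had 3, then 0 to 2. The 13 calls between controls of plate 3284-AT became 6 under RLE.

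With the replicate block, nuclear coded trend calls rose from 27 to 41 in arsenic (18 to 25 with a replicate left out), and from 1 to 31 over the other chemicals (0 to 1), with the copper and lead members given above. Cadmium trends had 9 calls (1 to 9) and thiram 34 (21 to 34). These values turned sign: MT-CO3 in PFDA at 0.25 µM was -0.12 in the last set, MT-ND6 there was -0.0087 in the last set and -0.045 to 0.67 with a replicate left out (lowest without replicate 1), and MT-RNR2 in thiram was -0.33 in the first set. The causes were not tested. Leaving out control 16, and the alternatives for MPB and BPA at 2.5 µM and for arsenic against cadmium, were chosen after seeing the data. Cadmium at 25 µM, with 2 libraries of the lowest depth, limits every value that rests on it.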
